A study of Mus musculus with 24 samples.

Results

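Transcripts of 10 neutrophil granule and calprotectin genes were examined in 24 mouse libraries of sorted tissue-resident macrophages: Elane, Mpo, Ltf, Ngp, Lcn2, Camp, Mmp8, Mmp9, S100a8 and S100a9. The genes were chosen by name as products that neutrophils store or carry in bulk, with earlier results of these data known. Each matched 1 of the 55487 genes in the deposited table. The libraries formed 8 groups of 3: alveolar macrophages of lung, Kupffer cells of liver, microglia of brain and macrophages of spleen, each in wild type (WT) and in the genotype written Z165KO (KO below). Each library was made from 100000 sorted macrophages, with the NucleoSpin RNA XS kit for extraction and the SMARTer Ultra Low kit for amplification, and read on a NovaSeq X Plus. The title of the series names cMaf and Zeb2, but the labels do not describe the Z165KO allele, the strain, the animals' age or the sort gate. They do not say whether replicates came from separate animals either, so the p-values below measure spread between libraries that may be technical.

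A developing neutrophil makes its granule proteins in waves. Primary granules receive myeloperoxidase and elastase in the promyelocyte, secondary granules are filled next, and gelatinase-rich tertiary granules come late. The mRNAs for the primary and secondary granule contents are largely switched off before the cell leaves the bone marrow, whereas S100a8 and S100a9, whose products pair as the zinc- and manganese-binding complex calprotectin, remain abundant in the mature cell and in some monocytes. Transcription factors of the C/EBP family, C/EBP epsilon above all, are known to drive the secondary granule genes, and the ETS factor PU.1 acts across the myeloid lineage.

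The genes lie on 5 chromosomes of GRCm38 (mm10), and all 10 are annotated by GENCODE as protein coding. S100a8 (chr3:90668978-90670035, plus strand) and S100a9 (chr3:90692632-90695721, minus strand) are neighbours, 22596 bases apart with 0 genes between them. Chromosome 9 carries Camp (chr9:109847379-109849617, minus strand), Ngp (chr9:110419747-110423012, plus strand), Ltf (chr9:111019271-111042767, plus strand) and, far from these, Mmp8 (chr9:7558456-7568485, plus strand). Ngp lies 570129 bases from Camp with 22 genes between and 596258 bases from Ltf with 29 genes between. Lcn2 (chr2:32384633-32388252, minus strand) and Mmp9 (chr2:164940780-164955850, plus strand) are on chromosome 2, Elane (chr10:79886247-79888215, plus strand) is on chromosome 10 and Mpo (chr11:87793581-87804413, plus strand) is on chromosome 11. Mpo overlaps Gm11505 on the opposite strand, and no source used here says whether counting used strand, so reads of these 2 genes may not be separated.

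RefSeq promoter windows on GRCm38.p6, from 250 bases before to 50 bases after the start, were matched for 9 of the 10 genes. They were searched on both strands for the C/EBP-type letters TTGCNNAA (reverse complement TTNNGCAA) and the ETS-type letters GAGGAA (reverse complement TTCCTC). Shown 5′ to 3′ on the gene's own strand are the 3 secondary granule genes that lie together on chromosome 9, the neighbouring calprotectin pair, and Mmp8, whose levels followed another order among tissues. Capitals mark every match. The windows are chr9:111019042-111019341 (plus strand) for Ltf, chr9:110419558-110419857 (plus strand) for Ngp, chr9:109849407-109849706 (minus strand) for Camp, chr3:90668821-90669120 (plus strand) for S100a8, chr3:90695672-90695971 (minus strand) for S100a9 and chr9:7558179-7558478 (plus strand) for Mmp8.
Ltf: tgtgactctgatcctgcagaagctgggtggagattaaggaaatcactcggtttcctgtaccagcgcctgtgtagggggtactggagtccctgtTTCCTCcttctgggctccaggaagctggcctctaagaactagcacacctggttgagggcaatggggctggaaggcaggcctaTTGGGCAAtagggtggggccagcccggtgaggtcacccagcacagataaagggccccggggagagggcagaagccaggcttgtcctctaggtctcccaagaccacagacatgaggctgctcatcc
Ngp: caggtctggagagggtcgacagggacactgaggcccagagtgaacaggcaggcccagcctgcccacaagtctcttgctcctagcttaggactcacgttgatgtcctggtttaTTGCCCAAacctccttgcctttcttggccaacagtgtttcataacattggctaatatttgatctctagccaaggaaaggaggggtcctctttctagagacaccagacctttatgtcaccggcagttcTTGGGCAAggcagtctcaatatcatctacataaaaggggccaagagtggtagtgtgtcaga
Camp: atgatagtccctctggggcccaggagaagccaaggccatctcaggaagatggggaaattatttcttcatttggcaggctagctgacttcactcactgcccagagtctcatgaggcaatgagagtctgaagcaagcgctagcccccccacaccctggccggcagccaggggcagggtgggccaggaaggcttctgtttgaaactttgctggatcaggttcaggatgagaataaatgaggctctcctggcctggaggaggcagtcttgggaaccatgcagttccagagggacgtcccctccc
S100a8: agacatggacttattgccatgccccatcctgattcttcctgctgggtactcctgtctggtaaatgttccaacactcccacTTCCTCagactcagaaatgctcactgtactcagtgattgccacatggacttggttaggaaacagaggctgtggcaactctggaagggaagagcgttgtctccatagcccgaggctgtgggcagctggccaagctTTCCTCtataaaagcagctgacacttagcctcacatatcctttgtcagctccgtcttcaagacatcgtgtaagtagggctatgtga
S100a9: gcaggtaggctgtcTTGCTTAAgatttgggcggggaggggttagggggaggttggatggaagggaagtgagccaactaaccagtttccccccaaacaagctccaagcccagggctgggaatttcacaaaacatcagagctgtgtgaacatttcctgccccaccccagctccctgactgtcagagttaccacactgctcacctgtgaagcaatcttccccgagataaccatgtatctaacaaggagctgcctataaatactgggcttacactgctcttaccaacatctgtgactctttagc
Mmp8: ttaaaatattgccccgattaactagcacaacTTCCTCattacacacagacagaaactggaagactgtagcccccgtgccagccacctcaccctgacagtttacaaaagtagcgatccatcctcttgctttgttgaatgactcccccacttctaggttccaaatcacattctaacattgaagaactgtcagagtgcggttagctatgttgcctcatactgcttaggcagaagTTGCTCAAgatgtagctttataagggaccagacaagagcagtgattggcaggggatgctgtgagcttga
The C/EBP-type letters occurred in 5 of the 9 windows (Ltf, Ngp, Lcn2, Mmp8 and S100a9) and in 10.8% of all 32851 RefSeq windows of this length. Ngp had a pair of matches, the first bases at -138 and -11 from the start. The Ltf match began at -75, that of Mmp8 at -19, that of Lcn2 at -216 and that of S100a9 at -236. The ETS-type letters occurred in 6 of the 9 windows (Elane, Mpo, Ltf, Lcn2, Mmp8 and S100a8) and in 28.3% of all windows. The window of Camp held neither, and no match of one motif overlapped a match of the other. These are matches of letters, not evidence of binding.

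Library totals ran from 50449347 to 65981787 gene-assigned reads. Reads carried no molecular identifiers, so counting intervals and floors cover counting error only. Levels below are counts scaled to the library total (CPM). The summed CPM of 7 alveolar markers (Siglecf, Marco, Car4 and others) were 20665 to 31598 in alveolar libraries and at most 1419 elsewhere. For 6 Kupffer markers (Clec4f, Timd4 and others) the sums were 14583 to 19713 against at most 1174 elsewhere, and for 6 microglial markers (Tmem119, P2ry12 and others) 26663 to 28736 against at most 377. The 6 splenic markers (Spic, Vcam1, Hmox1 and others) were less specific, with 21688 to 25711 CPM in spleen and up to 19232 in Kupffer libraries. Zeb2, named in the series title, was at 126 to 142 CPM in alveolar KO and 190 to 297 CPM in alveolar WT libraries, and its KO and WT values overlapped in each of the other 3 cell types. In bulk libraries fewer cells of a type and less RNA per cell cannot be told apart.

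Among wild-type macrophages the 10 genes fell into different tissue patterns. Ltf, Ngp, Camp, Elane and Mpo were highest in spleen, whereas S100a8, S100a9, Mmp8, Mmp9 and Lcn2 were highest in alveolar macrophages, and microglia or Kupffer cells were lowest for every gene. A joint edgeR quasi-likelihood test of the 4 WT groups called 8 of the 10 at an adjusted p under 0.05, all but Elane (adjusted p = 0.114) and Lcn2 (adjusted p = 0.0516). Of all 21679 genes tested, 52.3% were called, so a difference among these tissues was the common case. Between pairs of WT tissues, which share libraries, the share called was 26.9% for alveolar against splenic, 28% for alveolar against Kupffer, 39.8% for alveolar against microglial, 32.4% for Kupffer against microglial, 16.4% for Kupffer against splenic and 34.9% for microglial against splenic libraries. Lcn2 was called when any of 3 libraries was left out: microglia WT replicate 1 (adjusted p = 0.0195), microglia WT replicate 3 (adjusted p = 0.042) or Kupffer WT replicate 3 (adjusted p = 0.0421). Mpo lost its call without splenic WT replicate 2 (adjusted p = 0.062).

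TPM is the deposited abundance scaled by transcript length, which allows genes to be compared. By group mean TPM, the calprotectin transcripts were the most abundant of the set in WT alveolar and splenic libraries. WT alveolar macrophages held 382 ± 139 TPM of S100a9 and 214 ± 65 TPM of S100a8 (SD, n = 3 here and below). WT spleen held 142 ± 39.8 TPM of S100a9 and 80.3 ± 34.3 of S100a8, the latter close to Ngp at 75.8 ± 38.2. By mean CPM, Ngp (29.3) and Ltf (25.5) exceeded S100a9 (23.3) and S100a8 (17.6) in WT spleen. In WT Kupffer cells Mmp9 (20.5 TPM) exceeded S100a8 (12.5 TPM). In WT microglia Lcn2 (0.380 TPM) exceeded S100a8 (0.217 TPM) and S100a9 (0.178 TPM). S100a8 was at 42.9, 35.4 and 64.4 CPM in the WT alveolar replicates, 15.6, 10.8 and 26.5 in spleen, 2.89, 1.51 and 3.95 in Kupffer cells and 0.0186, 0.115 and 0.0197 in microglia. No neighbouring tissues in that order overlapped. Splenic exceeded Kupffer levels (adjusted p = 0.00213) and Kupffer exceeded microglial levels (adjusted p = 8.42e-05), but alveolar and splenic levels did not differ past the threshold (adjusted p = 0.0522). S100a9 followed the same order, with 55, 45.3 and 91.4 CPM in alveolar macrophages against 22.5, 16.5 and 31 in spleen (adjusted p = 0.0611).

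Mmp8, the neutrophil collagenase, was nearly constant in alveolar macrophages and scarce elsewhere. Its WT values were 42.8, 48.1 and 45.6 CPM in alveolar macrophages, 3.77, 2.06 and 0.995 in spleen, 1.13, 0.0318 and 2.72 in Kupffer cells and 0, 0.172 and 0 in microglia. The alveolar level was above the splenic level by 4.26 ± 1.11 on the log2 scale (SE; adjusted p = 0.0147), while spleen and Kupffer cells overlapped (adjusted p = 0.582). Mmp9, the gelatinase of tertiary granules, was likewise high in alveolar macrophages (47.9, 22.9 and 35.6 CPM), but Kupffer cells came next with 22.8, 31.1 and 15.2 CPM. Those groups overlapped (adjusted p = 0.605), and both stood above spleen at 8.63, 3 and 2.77 CPM. The Kupffer level was not past the threshold against spleen (adjusted p = 0.169), and microglia held 0.895, 0.0191 and 0 CPM.

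Ngp, Camp and Ltf, all of secondary granules, were highest in spleen. Ngp, a cathelicidin-related granule protein, was at 24.4, 16.7 and 46.9 CPM in splenic, 1.83, 3.05 and 6.02 in alveolar, 0, 0 and 0.0789 in microglial and 0, 0 and 0 in Kupffer WT libraries. Splenic exceeded alveolar levels by 3.11 ± 0.73 on the log2 scale (adjusted p = 0.0118), and alveolar exceeded microglial levels (adjusted p = 0.000543). Camp, the cathelicidin antimicrobial peptide, was at 3.48, 2.01 and 14.3 CPM in spleen against 0, 0.297 and 0.24 in alveolar macrophages (adjusted p = 0.0218), with 2 counts over the 3 microglial libraries and none in Kupffer cells. A total of 0 counts allows up to 3 counts over the group, or 0.0165 CPM in WT Kupffer cells. Ltf, the iron-binding lactoferrin, was at 31.2, 15.6 and 29.6 CPM in spleen, above 0.273, 3.69 and 2.62 in alveolar macrophages without overlap, although the difference missed the threshold (adjusted p = 0.0805). Lcn2, the siderophore-binding lipocalin, had the flattest profile: 5.57, 2.56 and 6.43 CPM in alveolar macrophages and 5.2, 2.03 and 6.04 in spleen, a log2 difference of 0.03 with a 95% interval from -2.17 to 2.24 (adjusted p = 0.995).

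Primary granule transcripts were low outside the spleen. Mpo, myeloperoxidase, was at 4, 11.1 and 2.08 CPM in WT spleen and at 0.7, 0.561 and 1.31 in alveolar macrophages, groups that did not overlap but did not differ past the threshold (adjusted p = 0.0854). Elane, neutrophil elastase, was at 0, 1.57 and 0.284 CPM in spleen and at most 0.311 CPM in each of the other WT libraries. Only the splenic and microglial Elane levels differed past the threshold (adjusted p = 0.0457), and the 3 microglial libraries had 0 counts. Ordering the tissues by TPM in place of CPM exchanged only the last 2 tissues of Mpo.

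**Figure D1:**
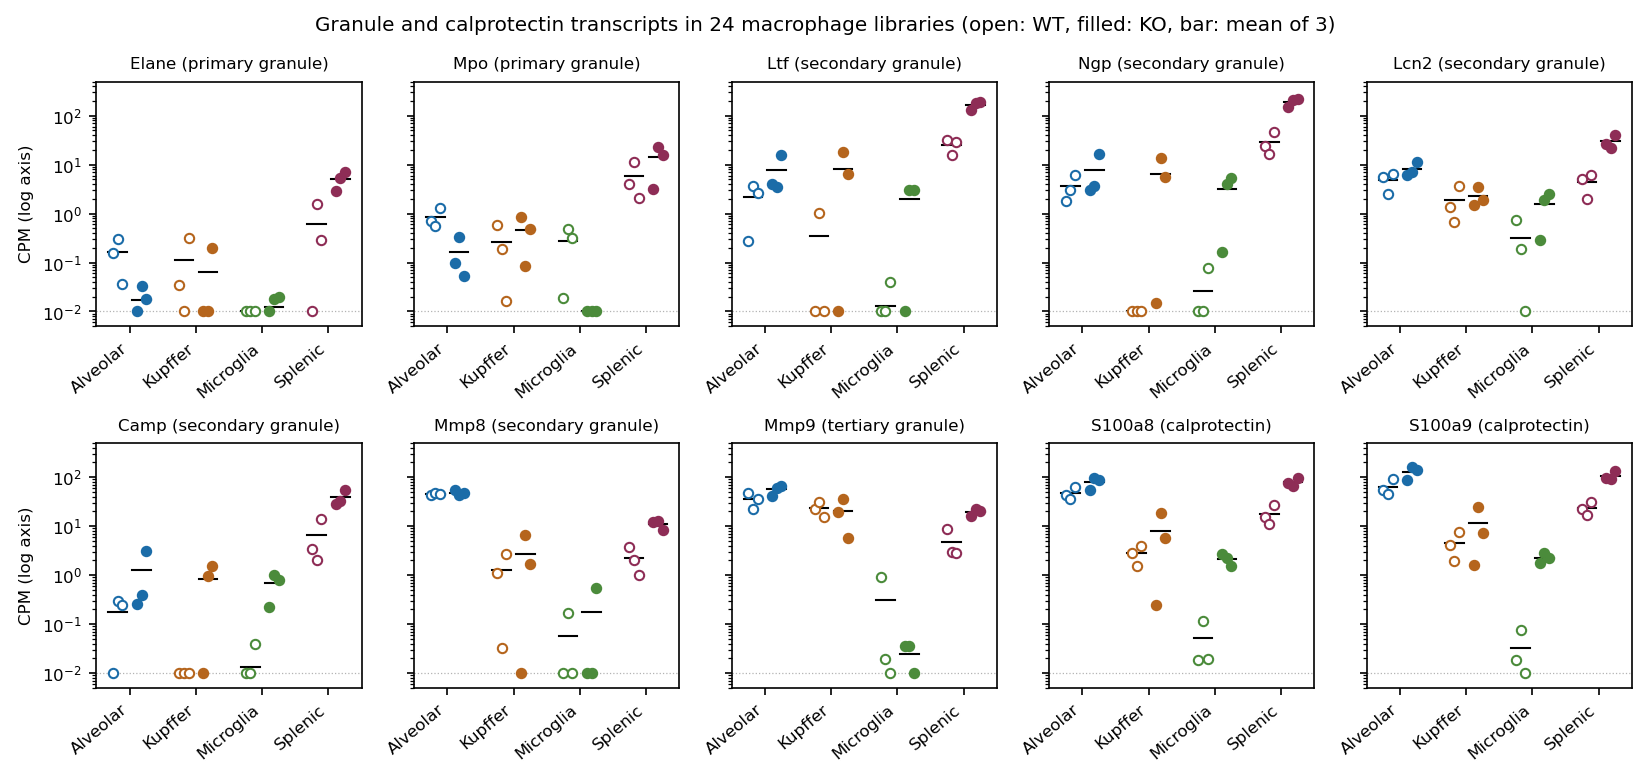
Levels of the 10 genes in CPM on a log axis, 1 point per library and a bar at the mean of 3, open for WT and filled for KO. Values under 0.01 CPM are drawn on the dotted line at 0.01; the splenic KO points lie above all splenic WT points for every gene but Mpo.

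In the spleen all 10 genes were higher in KO by group mean, and for 9 of them every KO library exceeded every WT library (6.89% of all genes with 10 or more counts showed that separation). Ltf, Ngp, Lcn2, S100a8 and S100a9 rose, with fitted changes of 2.18 to 2.78 on the log2 scale. These 5 of 10 tested genes compare with 0.129% of 17808 genes called higher in KO, or 23 genes, and 0.747% called in either direction. The other 5 (Camp, Mmp8, Mmp9, Elane and Mpo) had positive changes that missed the threshold. The median over the 10 genes was 2.45 on the log2 scale, against -0.00 for all genes. Because the set was chosen with earlier results of these data known, these shares and this median are description, not independent support.

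Ltf moved from 31.2, 15.6 and 29.6 CPM in WT to 128, 180 and 192 CPM in KO spleen. All KO libraries lay far above the highest WT library, and the mean was 6.55-fold higher (25.5 ± 8.61 against 167 ± 33.9 CPM). The fitted change was 2.76 ± 0.29 (SE) on the log2 scale, with adjusted p = 0.0106 in edgeR's quasi-likelihood test. Ngp followed closely, from 24.4, 16.7 and 46.9 to 152, 208 and 222 CPM, a 6.61-fold difference in means with no overlap (2.76 ± 0.39 on the log2 scale, adjusted p = 0.0345). Lcn2, whose WT levels overlapped between spleen and lung, reached 26.9, 21.6 and 40.7 CPM from 5.2, 2.03 and 6.04, again without overlap (2.78 ± 0.43, adjusted p = 0.0448).

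The calprotectin genes rose by less than that in fold but from a higher level per length. S100a8 was at 15.6, 10.8 and 26.5 CPM in WT and 74.8, 64.9 and 94.7 CPM in KO, 4.43-fold higher by mean (2.18 ± 0.33 on the log2 scale, adjusted p = 0.042). S100a9 was at 22.5, 16.5 and 31 CPM in WT and 97.4, 91.8 and 132 CPM in KO, 4.59-fold higher (2.23 ± 0.25, adjusted p = 0.0143). The difference in size between the calprotectin and the secondary granule changes was not tested. In TPM, KO spleen held 647 ± 121 of S100a9, 501 ± 92.4 of Ngp, 355 ± 62.3 of S100a8, 161 ± 55.6 of Camp and 153 ± 30.3 of Ltf, and at most 35.7 of each of the other 5.

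Camp was at 3.48, 2.01 and 14.3 CPM in WT and 28.8, 32.4 and 54.8 CPM in KO spleen. The groups did not overlap, but WT replicate 3 stood well above the other WT libraries and the fitted change of 2.57 ± 0.71 missed the threshold (adjusted p = 0.222). Without that library the change was 3.87 (adjusted p = 0.0327). Mmp8 went from 3.77, 2.06 and 0.995 to 12, 12.7 and 8.19 CPM (2.33 ± 0.48, adjusted p = 0.1) and Mmp9 from 8.63, 3 and 2.77 to 16.1, 22.5 and 20.2 CPM (2.09 ± 0.45, adjusted p = 0.116), both without overlap. Without WT replicate 1, the highest WT library for Mmp9, the Mmp9 change was 2.79 (adjusted p = 0.0308).

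The primary granule genes were the least regular. Elane was at 0, 1.57 and 0.284 CPM in WT and 2.93, 5.29 and 6.94 CPM in KO, separated but with a wide interval (3.04 on the log2 scale, from 0.05 to 6.03, adjusted p = 0.419). Mpo was at 4, 11.1 and 2.08 CPM in WT and 3.15, 23.2 and 15.7 CPM in KO, with the lowest KO library below 2 of the WT libraries (1.33, interval -0.60 to 3.25, adjusted p = 0.601). In both genes WT replicate 2 was the highest WT library.

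The calls in spleen depended on the library set and the fit, while the direction did not. With 1 library left out at a time, the number called was 2 without WT replicate 1, 1 without WT replicate 2, 5 without WT replicate 3, 1 without KO replicate 1 and 0 without KO replicate 2 or KO replicate 3. These were not always the 5 genes named above. Lcn2 lost its call in each of the 6 fits (adjusted p from 0.0715 to 0.146). The 2 genes without WT replicate 1 were Ltf and Mmp9, and the 5 without WT replicate 3 were Ltf, Ngp, Camp, S100a8 and S100a9. The fitted changes of the 5 called genes stayed between 1.93 and 3.30 on the log2 scale in those fits. DESeq2 called 8 of the 10, but it also called more genes in all, 995 against 133 by edgeR. The fit that shared 1 spread over all 24 libraries called 0 of the 10.

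**Figure D2:**
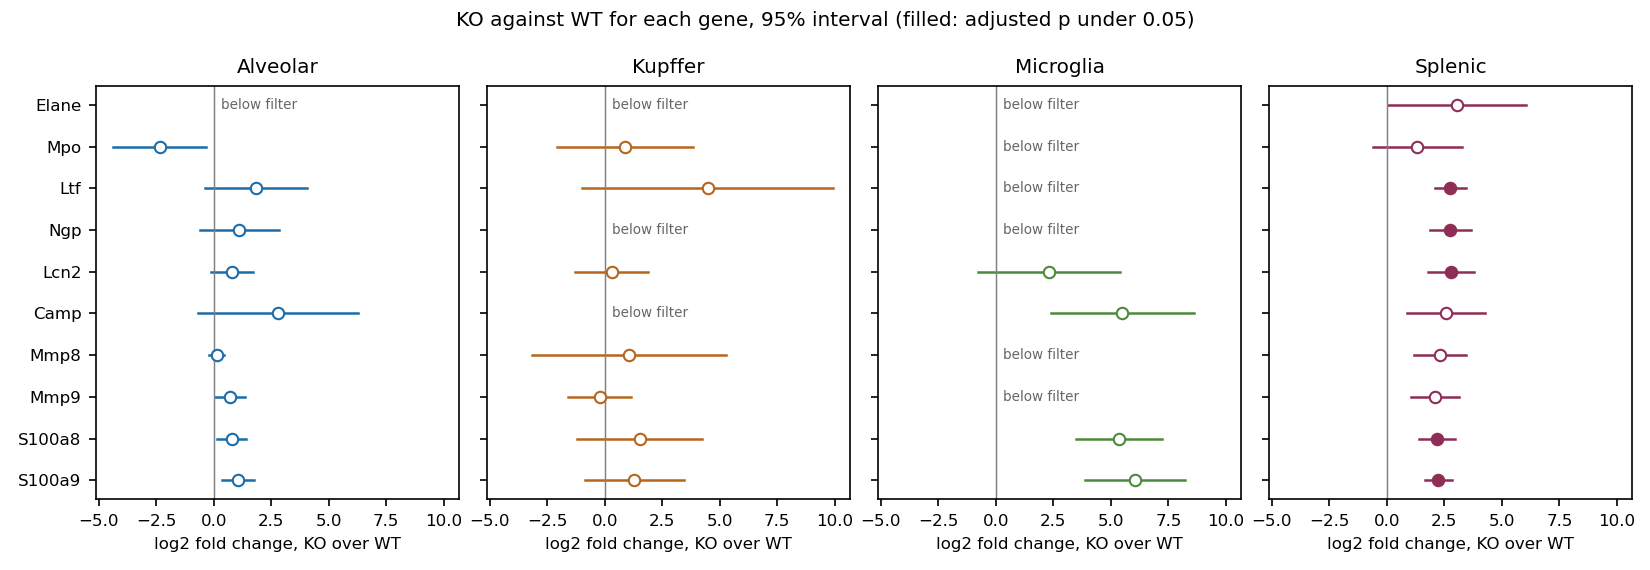
Fitted log2 fold change of KO over WT for each gene in each cell type, with its 95% interval from edgeR's quasi-likelihood fit; filled points passed an adjusted p of 0.05. The 5 filled points are all in spleen, and genes under the count filter carry no point.

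Other neutrophil genes were read beside the set in the same libraries. Of 13 further granule genes, 9 were tested in KO against WT spleen and 0 were called, 3 with an unadjusted p under 0.05, and the median change was 1.40 on the log2 scale. DESeq2 called 2 of them, Cd177 and Hp. Cd177, a neutrophil surface and granule glycoprotein, was at 6.17, 1.79 and 3.98 CPM in WT and 15.8, 31.9 and 26.6 CPM in KO without overlap (2.69 ± 0.47, adjusted p = 0.065). Hp, haptoglobin, was at 2.08, 3.21 and 5.62 against 9.24, 15.7 and 15.8 CPM (1.93 ± 0.42, adjusted p = 0.122). The sum of the 13 was 16.9 to 29.9 CPM in WT and 43.2 to 87.2 CPM in KO.

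Of 16 genes of mature neutrophils, 14 were tested in spleen and 1 was called higher: G0s2, an inhibitor of adipose triglyceride lipase, at 1.22, 1.1 and 2.24 CPM in WT and 15.7, 7.38 and 11.4 CPM in KO (2.95 ± 0.42, adjusted p = 0.0352). The list's median change was 1.54, and 12 of 14 changes were above 0, as were 49.7% of those of all 17808 genes. An unadjusted p under 0.05 was found for 9 members, beside 2079 of all genes, or 11.7%. DESeq2 called 6 of the list higher, Ly6g and Cxcr2 among them, and 1 lower. Ly6g, the defining mouse neutrophil surface antigen, was at 0, 0 and 0.0711 CPM in WT and 0.905, 0.697 and 1.28 CPM in KO, low but separated (adjusted p = 0.165). Cxcr2, the neutrophil chemokine receptor, was at 1.15, 0.639 and 0.622 against 6.12, 7.03 and 2.47 CPM, also separated (adjusted p = 0.0785). The summed level of the list overlapped, at 195 to 333 CPM in WT and 230 to 292 CPM in KO. WT microglia, in which no Ly6g was counted, held 635 to 869 CPM of the same list. Csf3r, which other leukocytes also express, was at 103 CPM in WT and 113 CPM in KO by group mean. The part of neutrophil RNA in the splenic rise was not tested.

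Regulators and partners of the granule genes were not called by edgeR in spleen. Of 12 regulators all were tested, 0 were called and 1 had an unadjusted p under 0.05, with a median of 0.06 on the log2 scale; DESeq2 called Runx1 alone. Cebpe, which encodes C/EBP epsilon, was at 0.33 CPM in WT and 0.93 CPM in KO by group mean (adjusted p = 0.674), and Gfi1, a repressor needed for granulocyte maturation, at 4.09 and 1.40 CPM (adjusted p = 0.438). Of 13 inhibitors and receptors, such as the Timp genes and the calprotectin receptor Tlr4, 10 were tested and 0 called (4 with an unadjusted p under 0.05, median 0.19, and Slpi called lower by DESeq2). Of 12 other S100 genes 7 were tested and 0 called, none with an unadjusted p under 0.05 and 0 by DESeq2.

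Some markers of other cells also differed between the splenic groups. The 4 B cell genes fell, among them Cd79a (-7.95 on the log2 scale, adjusted p = 0.0106) and Ms4a1 (-5.65, adjusted p = 0.0106), and their sum was 885 to 1276 CPM in WT and 33.1 to 87.7 CPM in KO. Ms4a4c of 9 monocyte genes fell (-2.36 ± 0.34, adjusted p = 0.0356), as did Il5ra of the eosinophil, basophil and mast cell list (adjusted p = 0.012). The rest of these lists did not fall as a whole. Of the 9 monocyte genes 5 had a change above 0 (median 0.07), with sums of 835 to 920 CPM in WT and 702 to 769 CPM in KO. Of the 5 tested genes of the other list 3 were above 0 (median 0.09). Its sums overlapped, at 483 to 810 CPM in WT and 555 to 578 CPM in KO. The 6 progenitor and proliferation genes were all above 0 in fitted change but 0 were called (3 with an unadjusted p under 0.05, and DESeq2 called 3), with sums of 165 to 253 CPM in WT and 362 to 555 CPM in KO. Erythroid transcripts were abundant in both, at 3449 to 13700 CPM in WT and 10112 to 16554 CPM in KO. Among the 23 genes called higher in KO, and picked out after their values were seen, were Xcr1, a chemokine receptor of cross-presenting dendritic cells (2.34 on the log2 scale, adjusted p = 0.032), Cd8a (2.10, adjusted p = 0.049), which T cells and some dendritic cells carry, and the mitotic genes Kif11 (1.62, adjusted p = 0.0386) and Cdca5 (1.48, adjusted p = 0.0459). The part of these cells in the granule gene values was not tested.

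**Figure D3:**
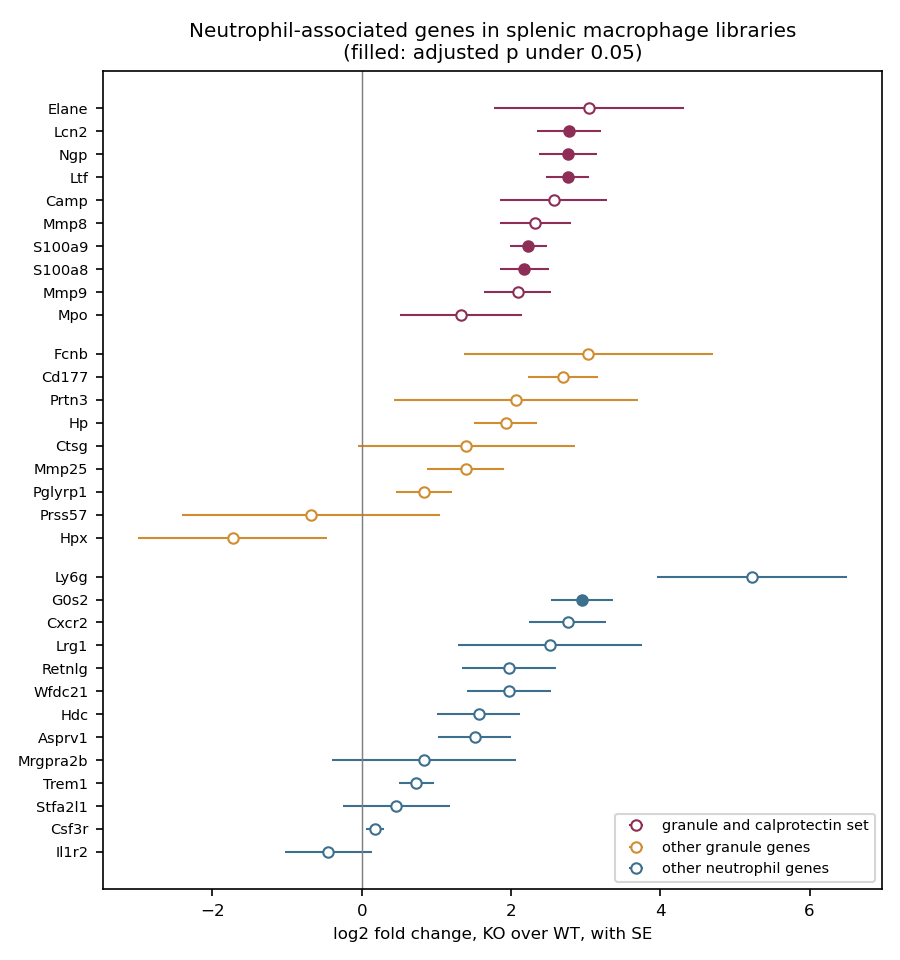
Fitted log2 fold change of KO over WT in splenic libraries, with SE bars, for the granule and calprotectin set, 9 further granule genes and 13 of the 14 further neutrophil genes tested. Filled points passed an adjusted p of 0.05: 5 in the set and G0s2 among the others.

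In alveolar macrophages, where calprotectin and both metalloproteinases were already high, 9 of the 10 genes passed the count filter and 0 were called, against 0.317% of 17369 genes called in either direction. By unadjusted p under 0.05 there were 4 (Mpo, Mmp9, S100a8 and S100a9), beside 2172 of all genes, or 12.5%. DESeq2 called S100a9 alone of the set (adjusted p = 0.0104), among 1034 genes in all. S100a9 was at 55, 45.3 and 91.4 CPM in WT and 87.8, 160 and 143 CPM in KO, with the lowest KO library under the highest WT library (1.06 ± 0.30, interval 0.37 to 1.76, adjusted p = 0.206). S100a8 was at 42.9, 35.4 and 64.4 against 55, 97.8 and 87.6 CPM, overlapping in the same way (0.78 ± 0.26, adjusted p = 0.291).

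Mmp8 gave the tightest comparison of the set. It was at 42.8, 48.1 and 45.6 CPM in WT and 53.6, 44 and 48.2 CPM in KO alveolar macrophages, fully overlapping. The change was 0.12 with an interval from -0.21 to 0.46 on the log2 scale (adjusted p = 0.814). Mmp9 was at 47.9, 22.9 and 35.6 against 40.8, 61.4 and 67.5 CPM (0.71 ± 0.28, adjusted p = 0.357), with overlap.

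The low secondary granule transcripts of alveolar macrophages were carried in KO by 1 library. Replicate 3 of KO held 16.1 CPM of Ltf, 16.7 of Ngp and 3.16 of Camp, while KO replicates 1 and 2 held 4.11 and 3.57, 3.05 and 3.72, and 0.262 and 0.396 CPM. Without that library the Ngp change was -0.045 in place of 1.12, and no adjusted p was below the threshold with it or without it. Mpo and Elane pointed down: Mpo was at 0.7, 0.561 and 1.31 CPM in WT and 0.0983, 0.33 and 0.0533 CPM in KO (-2.36 ± 0.87, adjusted p = 0.324), and Elane had 29 counts over the 3 WT and 3 counts over the 3 KO libraries. Every KO library was below every WT library for Mpo, a separation that 10.8% of genes showed in this comparison. For Elane the lowest WT and the highest KO library had 2 counts each, so its groups were not separated beyond counting error.

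The balance of the calprotectin pair was read within each library. The ratio of S100a9 to S100a8 reads was 1.28, 1.28 and 1.42 in WT and 1.60, 1.64 and 1.64 in KO, without overlap. A two-sided exact permutation test gave p = 0.1, the smallest value that 3 against 3 allows. The alveolar difference could therefore not pass the threshold. In spleen the same ratio was 1.45, 1.53 and 1.17 in WT and 1.30, 1.42 and 1.40 in KO, with full overlap. This pair was picked out after the values were seen.

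Genes of the mature neutrophil list were read in the alveolar libraries as well. All 14 tested genes of the list had a change above 0, as did 48.5% of all 17369 genes, and the median was 1.01 on the log2 scale. Of the 14, 1 was called, beside 0.317% of all genes in either direction. An unadjusted p under 0.05 was found for 8, beside 12.5% of all genes. Cxcr2 rose from 20.5, 11.9 and 20.9 CPM in WT to 103, 119 and 107 CPM in KO (2.67 ± 0.21, adjusted p = 0.00885). Ly6g was at 0, 0.396 and 0.628 against 1.05, 1.52 and 1.46 CPM, separated but not past the threshold (adjusted p = 0.588). The list's sum was 769 to 985 CPM in WT and 1406 to 1640 CPM in KO, and its part in the calprotectin values was not tested. In WT microglia, where no Ly6g was counted, the same list summed to 635 to 869 CPM. Its sum therefore does not measure neutrophils alone. The 9 monocyte genes summed to 1174 to 1650 CPM in WT and 476 to 782 CPM in KO (6 with an unadjusted p under 0.05, 0 called, and DESeq2 called 6 lower). The 4 B cell genes summed to 70.1 to 151 CPM in WT and 6.39 to 8.72 CPM in KO, and Ighm (75.9 against 7.47 CPM by group mean, adjusted p = 0.0258) fell. The part of these cells in the granule and calprotectin values was not tested either. Among 12 genes that granules share with macrophage phagosomes and lysosomes, Cd63, a tetraspanin of such membranes, rose (2.25 ± 0.17, adjusted p = 0.00846). It was the 1 called of the 12, of which 6 had a change above 0 (median 0.02) and 3 an unadjusted p under 0.05. DESeq2 called 2 of them, Cd63 higher and Ncf1 lower.

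In Kupffer cells 7 of the 10 genes passed the filter and 0 were called, beside 0.0629% of 19085 genes. None of the 7 had an unadjusted p under 0.05, against 1325 of all genes (6.94%). Of the 3 genes under the filter, Ngp had 0 counts in each WT library and 0.0152, 13.8 and 5.47 CPM in KO, where its mean was at least 389-fold above the floor of 3 counts over the WT group. Camp was at 0, 0 and 0 against 0, 0.937 and 1.51 CPM, at least 49.4-fold higher on the same floor. DESeq2, run without that filter, called these 2 genes (adjusted p = 0.0149 for Ngp and 0.0432 for Camp), among 475 genes in all. By contrast, edgeR without the filter gave adjusted p = 0.243 and 0.472.

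Kupffer KO libraries were unlike one another. Replicate 2 was highest for Ltf (17.8 CPM), Ngp (13.8), S100a8 (18.5), S100a9 (25.1) and Mmp8 (6.47), while replicate 1 held 0, 0.0152, 0.242, 1.59 and 0 CPM of the same genes. WT values for S100a8 were 2.89, 1.51 and 3.95 CPM, above the lowest and below the highest KO library. Without KO replicate 2 the S100a8 change was 0.16 in place of 1.51 and the S100a9 change 0.05 in place of 1.27 on the log2 scale. Ngp was the only gene of the set with every KO library above every WT library (5.09% of genes), but KO replicate 1 held 1 count, within what 0 counts in a WT library allows. Mmp9 was at 22.8, 31.1 and 15.2 CPM in WT and 19.2, 35.1 and 5.61 CPM in KO (-0.23 ± 0.57, adjusted p = 0.979). Ly6g, the neutrophil antigen, had 10 counts in KO replicate 2, 2 counts in WT replicate 2 and 0 in the other 4 libraries. Of the marker lists, Cd79a of B cells (105 CPM in WT against 0.196 CPM in KO by group mean, adjusted p = 0.0284) and Il5ra (3.52 against 0.00558 CPM, adjusted p = 0.0418) fell in Kupffer cells. Of the 5 tested genes of the eosinophil, basophil and mast cell list, which holds Il5ra, 2 had a change above 0. The sums of that list overlapped, at 14.6 to 20.1 CPM in WT and 17.4 to 28.7 CPM in KO.

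Microglia from WT brain were close to empty of these transcripts, with a summed level of 0.493 to 1.70 CPM, against 5.14 to 16.1 CPM in KO. Only 4 genes passed the filter (Lcn2, Camp, S100a8 and S100a9) and 0 were called in edgeR's test, as for all 17880 genes (0%). At an unadjusted p under 0.05 there were 3 of 4, beside 794 of all genes (4.44%). A gene that passed only through its KO counts had to differ, so that share has no weight of its own. DESeq2 called Camp, Ngp, S100a8 and S100a9, among 106 genes in all.

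S100a8 was at 0.0186, 0.115 and 0.0197 CPM in WT and 2.67, 2.21 and 1.55 CPM in KO microglia, 8 against 347 counts over each group. S100a9 was at 0.0186, 0.0764 and 0 against 1.76, 2.82 and 2.2 CPM, 5 against 364 counts. In both genes the groups were far apart (5.34 ± 0.81 and 6.06 ± 0.94 on the log2 scale), yet each had adjusted p = 0.491. DESeq2 called both (adjusted p = 5.56e-07 and 1.21e-07), and edgeR without the filter did so too (adjusted p = 0.03 and 0.0222).

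The secondary granule genes of KO microglia came from 2 of 3 libraries. Ngp was at 0.163, 4.11 and 5.43 CPM, Ltf at 0, 3.04 and 2.99 CPM and Camp at 0.218, 1.01 and 0.813 CPM, so that replicate 1 was low in each although it had the most S100a8. Ly6g showed the same split, with 0, 11 and 10 counts in KO and 0 in every WT library. WT libraries held 4 counts of Ngp, 2 of Ltf and 2 of Camp over the 3. Mpo ran the other way, with 42 counts over the WT and 0 over the KO libraries. In all, 4 genes (Ngp, Camp, S100a8 and S100a9) were separated upward, as were 4.59% of genes, and Mpo was separated downward, as were 4.83%. The Mpo separation rests on 1 count in WT replicate 1, within what 0 counts in a KO library allows.

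Whether the KO effect differed between tissues was tested in 1 model over all 24 libraries. In edgeR's quasi-likelihood test of the interaction 0 of the 10 genes were called, against 126 of 24030 genes (0.524%). The smallest adjusted p were 0.218 for S100a9, 0.235 for Mpo, 0.285 for Ngp and 0.287 for Mmp9, and 5 of the 10 had an unadjusted p under 0.05, beside 11.6% of all genes. DESeq2's likelihood ratio test called 5 genes of the set (S100a9, Ngp, Mpo, Mmp9 and S100a8, adjusted p from 0.000764 to 0.0309), among 948 in all. Without Kupffer KO replicate 2 edgeR called S100a9 (adjusted p = 0.0412). A rise limited to the spleen is therefore not shown.

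The proportion of secondary granule to calprotectin transcripts was lower in every alveolar than in every splenic library. The summed TPM of Ltf, Ngp, Lcn2 and Camp was 0.022 to 0.036 of that of S100a8 and S100a9 in WT alveolar macrophages and 0.016 to 0.067 in KO. In spleen it was 0.458 to 0.698 in WT and 0.714 to 1.01 in KO, where no library overlapped between genotypes. Kupffer WT libraries ran from 0.043 to 0.094, overlapping the alveolar KO range, and KO libraries from 0.175 to 0.408. In microglia, where these sums rest on few reads, the ratio was 4.54, 0.234 and 4.51 in WT and 0.0737, 0.733 and 1.14 in KO, a range that covered the splenic values. Calprotectin itself summed to 422 to 821 TPM in WT and 741 to 1363 TPM in KO alveolar macrophages, and to 156 to 302 TPM in WT and 865 to 1209 TPM in KO spleen. Mmp8 behaved unlike its granule class, at 1.45 to 11.8 times the TPM of Ngp in alveolar libraries and 0.0107 to 0.0777 times in splenic ones.

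**Figure D4:**
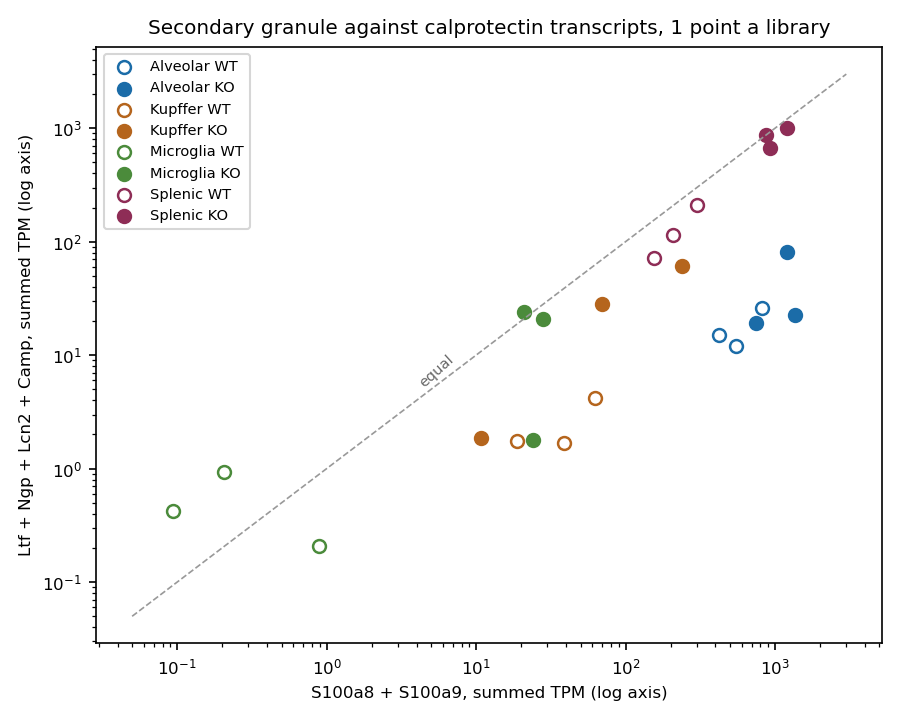
Summed TPM of Ltf, Ngp, Lcn2 and Camp against summed TPM of S100a8 and S100a9 on log axes, 1 point per library, open for WT and filled for KO; the dashed line marks equal sums. Splenic libraries lie near the line and alveolar libraries lie well below it, at ratios of at most 0.067.

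Within the set, levels on the log2(CPM + 1) scale were most alike for S100a8 and S100a9 (Pearson r = 0.99 over 24 libraries), Ltf and Ngp (0.98), Ngp and Camp (0.94), Ltf and Camp (0.93), Mmp8 and S100a9 (0.89), Mmp8 and S100a8 (0.88), Lcn2 and S100a9 (0.87), and Elane and Mpo (0.87). These values mix tissue, genotype and library differences and are given as description. Taking each library as its deviation from its group mean left S100a8 with S100a9 at 0.96 and Ltf with Ngp at 0.93, whereas Mmp9 with Ngp was at 0.08. In KO spleen the TPM ratio of Ngp to Ltf was 3.35, 3.26 and 3.26, against 2.21, 3.03 and 4.47 in WT.

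Genes outside the set were ranked by the same correlation over 24 libraries among 14209 genes with a mean of at least 1 CPM. Ltf and Ngp were most like Abcb10 (0.91 and 0.92), and both lists also held Gfra4, Col14a1 and Fech. Fech encodes ferrochelatase, the last enzyme of haem synthesis, and Abcb10 is a mitochondrial transporter of red cell precursors. By deviation from the group mean, none of these genes was among the nearest listed for Ltf or Ngp. Gm5492 was then in both lists (0.76 and 0.77). Camp differed from these genes in this. By level it was nearest to 5430401H09Rik (0.96), Fech (0.95) and Abcg4 (0.95). By deviation from the group mean Camp was nearest to Ank1 (0.83), and Abcg4 (0.80) and 5430401H09Rik (0.78) stayed among its nearest. For S100a8 the nearest was Mybl2, then Asprv1, a protease of the neutrophil list (both 0.92). Mmp8 was nearest to Plscr1 (0.96) and Kpna2 (0.95), with Trem1 and the alveolar marker Chil3 at 0.94.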

How the data were processed

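RNA-seq was analysed for 24 libraries. The authors deposited, per gene, whole-number counts, CPM and TPM. The submitters' processing notes give mm10 as build and list Salmon, STAR, featureCounts, Subread and DRAGEN without their roles. Some deposited TPM columns summed above 1000000 before 287 repeated rows were dropped, and those columns were treated as a score in the authors' scale; after the drop each summed to 1000000. The deposited counts of 55487 genes were tested with edgeR 4.0.16 in R 4.3.3 (two-sided quasi-likelihood test, TMM, filterByExpr with a minimum count of 10, Benjamini-Hochberg adjustment over all genes tested, threshold 0.05). KO was compared with WT in the 6 libraries of a cell type, WT cell types in 12 libraries and the interaction in 24. DESeq2 1.42.0 and the other fits are alternatives. CPM describes levels and TPM compares genes. The fits were tested on simulated data. Replicate numbers were not taken to pair samples. Whether same-numbered libraries of different tissues came from the same animal was not tested. The main WT tissue and interaction tests treated all libraries as independent. The members and lists were chosen with earlier results of these data known. Text names all members, up to 3 called genes a list by size of change, nearest genes by correlation and, after their values were seen, Ly6g, Cd177, Hp, Csf3r, Cebpe, Gfi1, Cxcr2, Xcr1, Cd8a, Kif11 and Cdca5 in spleen and the alveolar S100a9 to S100a8 ratio. In all, 1 gene of the mature neutrophil list and 1 of the B cell list are counted in their totals but not reported here.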

Additional observations from a re-analysis of the deposited data

How the results depend on the processing

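All 10 genes kept a positive change in spleen under every alternative run; other settings moved calls. Genes of the set called with DESeq2 numbered 1 in alveolar macrophages, 2 in Kupffer cells, 4 in microglia, 8 in spleen and 5 for the interaction. With no filter on low counts they numbered 3 in microglia and 7 in spleen (Mmp8, adjusted p = 0.0241, and Mmp9, adjusted p = 0.0221, joined the 5), and with 1 fit of all 24 libraries 1 in microglia and 0 in spleen. Over all genes, DESeq2 called 1034, 475, 106 and 995 in alveolar, Kupffer, microglial and splenic comparisons and 948 for the interaction; no filter gave 163, 76, 13 and 330; the fit of all 24 libraries gave 297, 48 and 19 in the first 3. Leaving out 1 library gave 0 to 29, 0 to 15, 0 to 1 and 18 to 90 genes in these comparisons and 74 to 159 for the interaction; for the set it gave 0 to 5 called in spleen and 0 to 1 for the interaction. With the replicate number as a block, 0 genes were called in alveolar macrophages, 0 in Kupffer cells and 10 in spleen, of which 1 in the set (S100a9, adjusted p = 0.0372). Within a cell type, deviations of same-numbered WT and KO libraries did not correlate above 0.1, and libraries of different tissues were not compared in this way. Changes reversed for 4 results, none of them called: Ngp in alveolar macrophages ran from -0.045 (without KO replicate 3) to 1.66 when 1 library was left out, and in Kupffer cells Lcn2 from -0.11 (without WT replicate 2; -0.07 without KO replicate 2) to 1.19, Mmp8 from -0.49 (without KO replicate 2) to 2.22, with -0.38 under the replicate block, and Mmp9 from -0.85 to 0.21 (without KO replicate 3; 0.06 without WT replicate 2). The cause was not tested. At 3 libraries a group, missing the threshold does not show equal levels. Values below about 0.1 CPM rest on a few reads.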
